A study of Mus musculus with 2 samples.

Results

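The interferon-stimulated genes examined here are a set of 43 mouse genes given by name. Of these, 42 are rows of the deposited table of 17790 genes, and Mx2 is not analysed here. They were measured by droplet RNA sequencing of the 3' ends of transcripts in single cells from lungs of C57BL/6 mice with lung adenocarcinoma. Tumours were microdissected and dissociated, and magnetic beads against CD45, the surface protein common to leukocytes, divided the cells into a CD45-negative and a CD45-positive fraction. Each fraction gave 1 library, so the comparison of fractions and every comparison of cell classes has no replicate check and no p-value. The genotype or other means by which the tumours arose, the age of the mice and the number of mice pooled could not be taken from the labels or the series' text. The cell names of both libraries carry the tag LucOS, which those sources do not explain. There is no tumour-free or interferon-treated group.

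Interferons are secreted proteins that cells release on sensing viral or microbial nucleic acids, or that activated lymphocytes release. Type I and type III interferons act through receptors that activate a complex holding STAT2 and IRF9, which binds the interferon-stimulated response element, abbreviated ISRE. Type II interferon, the product of Ifng, acts through a separate receptor and mainly through the gamma-activated site, abbreviated GAS. The genes switched on include RNA-binding and membrane-bound blockers of viral entry and replication, GTPases that attack vacuoles holding microbes, and the pathway's own sensors and transcription factors. Many of them are also transcribed at a low tonic level, so a level alone does not show that interferon was present.

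The promoters of 8 members are printed because 7 of them show the element that names the set and the stretch used for Ifitm1 does not. Each is 160 bases upstream of the RefSeq transcript start on build GRCm38.p6, read 5′ to 3′ on the gene's own strand. Capitals mark every match to the ISRE core or its reverse complement, the core being GAAA, any 2 bases and GAAA again.
Isg15 (chr4:156200819-156200978, minus strand): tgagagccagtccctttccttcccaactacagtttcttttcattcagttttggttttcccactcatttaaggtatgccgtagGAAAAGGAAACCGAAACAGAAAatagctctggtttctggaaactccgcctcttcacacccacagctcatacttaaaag
Ifit1 (chr19:34640729-34640888, plus strand): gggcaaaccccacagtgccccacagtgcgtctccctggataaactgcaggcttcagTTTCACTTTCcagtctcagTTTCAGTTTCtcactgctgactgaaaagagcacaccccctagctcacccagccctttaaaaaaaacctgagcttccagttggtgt
Ifit3 (chr19:34583369-34583528, plus strand): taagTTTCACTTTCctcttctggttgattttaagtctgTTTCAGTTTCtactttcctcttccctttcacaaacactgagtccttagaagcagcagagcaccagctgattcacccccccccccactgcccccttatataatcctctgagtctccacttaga
Rsad2 (chr12:26456453-26456612, minus strand): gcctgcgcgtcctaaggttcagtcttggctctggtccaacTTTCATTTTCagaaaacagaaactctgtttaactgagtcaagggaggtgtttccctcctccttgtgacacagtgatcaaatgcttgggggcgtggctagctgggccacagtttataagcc
Gbp2 (chr3:142620503-142620662, plus strand): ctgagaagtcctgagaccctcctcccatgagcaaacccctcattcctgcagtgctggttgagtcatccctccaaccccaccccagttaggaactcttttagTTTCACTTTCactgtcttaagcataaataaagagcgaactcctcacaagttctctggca
Igtp (chr11:58199396-58199555, plus strand): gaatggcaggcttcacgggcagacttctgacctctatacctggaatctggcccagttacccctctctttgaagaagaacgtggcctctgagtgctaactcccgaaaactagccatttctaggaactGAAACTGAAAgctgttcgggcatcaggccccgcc
Bst2 (chr8:71537473-71537632, minus strand): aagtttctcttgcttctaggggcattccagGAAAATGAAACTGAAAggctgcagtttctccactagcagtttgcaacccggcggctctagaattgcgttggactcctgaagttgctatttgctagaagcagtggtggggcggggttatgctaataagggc
Ifitm1 (chr7:140967916-140968075, plus strand): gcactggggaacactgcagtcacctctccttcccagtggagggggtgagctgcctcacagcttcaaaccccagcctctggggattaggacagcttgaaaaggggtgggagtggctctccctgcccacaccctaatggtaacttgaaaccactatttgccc
Isg15 has 3 overlapping matches, Ifit1, Ifit3 and Bst2 have 2 each, Rsad2, Gbp2 and Igtp have 1 each, and Ifitm1 has 0 in the stretch shown. The Ifitm1 stretch lies inside the annotated span of the gene, which begins at base 140967221. Bases upstream of that span are not shown, so an element there would be missed. RefSeq promoters were matched for 33 members, and in windows from 250 bases before to 50 bases after the start the ISRE core occurred in 20 of them (60.6%), against 3.99% of 27025 genes. The GAS core, TTC and GAA with any 3 bases between them, occurred in 12 of the 33 (36.4%) against 9.55% of all genes. A match is a description of letters in the window and does not show that a factor bound there. Several members lie side by side as gene families with similar sequences (the Ifit, Oas, Gbp and Ifitm families), so how the counting divided reads between close copies is uncertain for them.

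The CD45-negative library held 3957 cells and 40873786 UMI (unique molecular identifiers, each counted as 1 RNA molecule), and the median cell had 7710 UMI. The CD45-positive library held 11432 cells and 47477407 UMI, and the median cell had 3376, and 57 cell barcodes occur in both. The submitters assigned every cell to 1 of 7 classes, and some class names did not match their markers. Cells of the AT1 class (alveolar type 1, the flat gas-exchange cells) held 302 CPM (counts of the gene per 1000000 UMI of the group) of the type 1 marker Ager, against 1614 in the AT2 class (alveolar type 2, the surfactant-secreting cells). The Ciliated class carried 225427 CPM of the club-cell secretoglobin Scgb1a1, and the Fibroblast class carried the mesothelial markers Msln (3633 CPM) and Upk3b (2190 CPM), so these names are used below only as the deposited labels. UMI of leukocyte markers occurred in 3.45% to 16.5% of barcodes of the nonimmune classes of the CD45-negative library and in 68.1% to 86.7% of those of the CD45-positive library. The surfactant gene Sftpc stood in Endothelial barcodes at 6.53% of its library-wide level among CD45-negative and 12.8% among CD45-positive cells, and low values should be read against this level of free or carried-over RNA. Levels are not divided by transcript length, so they compare 1 gene between groups and not 1 gene with another. Ranges in parentheses after a level, ratio or share are exact 95% intervals that cover counting error only.

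Summed over the 42 genes, interferon-stimulated transcripts were most abundant in the Fibroblast and Endothelial classes. In the CD45-negative library the sum was 8843 CPM (8744 to 8943) in the Fibroblast class and 8462 CPM (8404 to 8519) in the Endothelial class. It was 2701 CPM in AT2, 2210 in Ciliated, 2096 in AT1, 1951 in the 108 Immune cells and 1265 in the Erythrocyte class. The last place of Erythrocyte rests on globins, which made up 84.1% of its UMI there. With globins left out of the totals, the sum was 7963 CPM in Erythrocyte, 8498 in Endothelial and 2711 in AT2. The same values in the CD45-positive library were 4829, 7036 and 2874 CPM. In the CD45-positive library the order of the first classes was the same, with 7970 CPM in the Fibroblast class, 7028 in the Endothelial class and 2869 in AT2, and the 7438 Immune cells there reached 2506 CPM (2488 to 2525). Most of the gap came from 4 membrane restriction factors, Ifitm1, Ifitm2, Ifitm3 and Bst2, which made up 71.1% of the members' UMI in the Endothelial class and 39.4% in AT2. Without them the Endothelial sum exceeded that of AT2 1.5-fold instead of 3.13-fold (3.10 to 3.17), and the Fibroblast sum 1.76-fold instead of 3.27-fold (3.23 to 3.32).

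**Figure D1:**
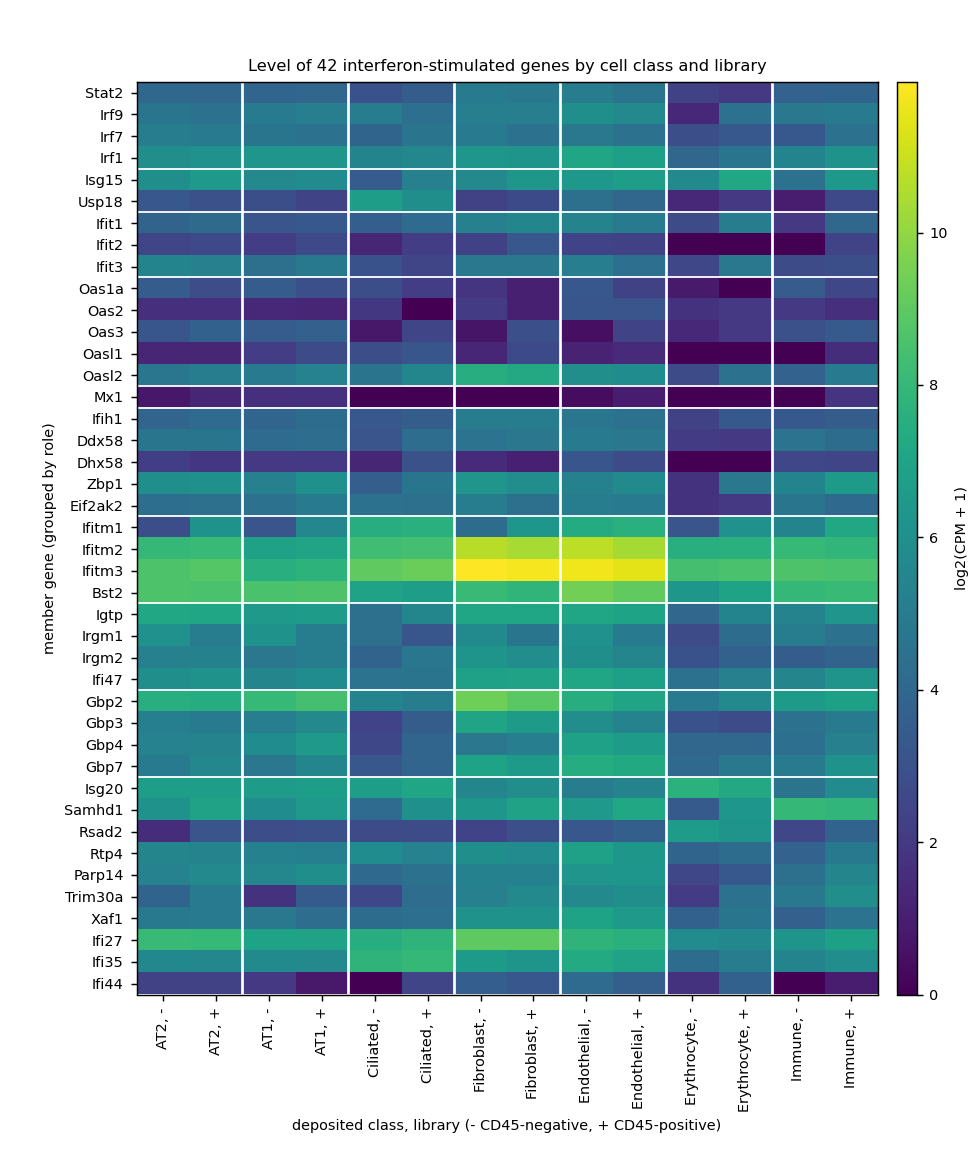
Level of each of the 42 genes (rows, grouped by role) in each deposited class of both libraries (columns), on a colour scale of log2(CPM + 1). Ifitm3 and Ifitm2 stand out in the Endothelial and Fibroblast columns of both libraries, Rsad2 and Isg20 in Erythrocyte, and Usp18 in Ciliated.

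IFITM3 and its relatives sit in cell and endosome membranes and block the fusion of enveloped viruses, and tetherin, the product of Bst2, holds budding virions on the cell. Ifitm3 was at 4032 CPM in the Fibroblast class and 3387 in the Endothelial class of the CD45-negative library, and at 3646 and 2871 in the CD45-positive library. AT2 cells held 401 CPM in the first library and 451 in the second, so the classes kept their order in both. Ifitm2 followed the same order, with 1762 CPM in the Endothelial class, 1635 in the Fibroblast class and 255 in AT2 of the CD45-negative library. Ifitm1 differed, since its highest class was Ciliated (178 CPM in CD45-negative and 196 in CD45-positive libraries), followed by Endothelial (165 and 191). Ciliated exceeded Endothelial by 1.08-fold (0.940 to 1.23) and 1.03-fold (0.874 to 1.21), within counting error in both libraries. Bst2 was highest in Endothelial (698 and 535 CPM) and came next in AT2 (402) and AT1 (368) in the CD45-negative library, and it was the only one of the 4 that stood higher in AT2 than in the Fibroblast class (270 CPM).

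Among the transcription factors, Irf1, an early target of interferon gamma, had 137 CPM in the Endothelial class of the CD45-negative library against 58.8 in AT2, and 106 against 65.3 in the CD45-positive library. Irf9 and Stat2, the DNA-binding partner and the transactivating subunit of the type I complex, were at 62.1 and 32.7 CPM in Endothelial and at 23.8 and 14.9 in AT2. Irf7, which amplifies type I interferon production, was nearly level across these classes, at 31.1 CPM in AT2, 28.9 in Fibroblast and 26.5 in Endothelial, and AT2 exceeded Fibroblast by 1.08-fold (0.870 to 1.35), within counting error. Isg15, a ubiquitin-like protein that is both attached to other proteins and secreted, was at 83.9 CPM in Endothelial, 60.7 in AT2, 52.1 in Erythrocyte and 10.1 in Ciliated in the CD45-negative library. In the CD45-positive library it was at 99.1, 88.3, 138 and 35.8 CPM in the same classes, so Erythrocyte moved from the third place to the highest. With globins left out of the totals, Isg15 was at 328 CPM in Erythrocyte and 84.2 in Endothelial of the CD45-negative library. The same values in the CD45-positive library were 381 and 99.2 CPM. Ciliated was lowest for Isg15 in both libraries. Usp18, the protease that removes ISG15 and dampens signalling from the type I receptor, went the other way: its level in Ciliated was 99.1 CPM (83.3 to 117) among CD45-negative and 61.2 among CD45-positive cells, while every other class held at most 20.6 CPM in either.

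The IFIT proteins bind foreign RNA and stop its translation. Ifit3 was highest in AT2 in both libraries, at 40.7 CPM (37.9 to 43.7) among CD45-negative and 36.1 CPM (32.0 to 40.7) among CD45-positive cells, while Immune cells of the CD45-positive library held 6.32 CPM (5.42 to 7.33). Ifit1 was instead highest in Endothelial (40.6 CPM) and Fibroblast (36.5 CPM) in the CD45-negative library, against 13.3 in AT2. Within this family, then, neighbouring genes did not share 1 order of classes. The oligoadenylate synthetases, which make the signal that activates RNase L, also divided. Oas3 was at 8.14 CPM in AT2 and 10.1 in AT1 but at 0.406 CPM (0.111 to 1.04, from 4 UMI) in Endothelial, whereas the related Oasl2 was at 177 CPM in Fibroblast against 24.8 in AT2. The dynamin-like GTPase Mx1 was nearly undetected, with 27 UMI in the whole CD45-negative library (0.661 CPM) and 92 in the CD45-positive (1.94 CPM).

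The sensors of nucleic acids varied between classes, and in the CD45-negative library Erythrocyte was lowest for each one named here. Globins made up 84.1% of Erythrocyte UMI there, which lowers the CPM of every other gene in that class. The sensors were not recomputed without globins, so this rank may not hold among the other transcripts. Ddx58, which encodes the RNA sensor RIG-I, ranged from 3.21 CPM in Erythrocyte to 30.6 in Endothelial in the CD45-negative library, and Ifih1, which encodes MDA5, from 4.01 to 33.0 CPM with its highest value in Fibroblast. Eif2ak2, the RNA-activated kinase PKR that halts translation, stood between 19 and 32.4 CPM in every class except Erythrocyte. Zbp1, a sensor of left-handed nucleic acid that can start necroptosis, was at 73.8 CPM in Fibroblast, 61.0 in AT2 and 40.8 in Immune cells of the CD45-negative library, and in the CD45-positive library the Immune class was highest at 90.9 CPM.

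The GTPases of the GBP and IRG families are typical targets of interferon gamma, and their orders of classes differed. Gbp2 was at 653 CPM (627 to 681) in Fibroblast, 258 in AT1, 179 in AT2 and 174 in Endothelial in the CD45-negative library, and at 484, 352, 169 and 126 in the CD45-positive library. Gbp7 had another order, at 169 CPM in Endothelial, 124 in Fibroblast and 29.1 in AT2. Igtp and Ifi47, both immunity-related GTPases that coat microbe-containing vacuoles, were at 142 and 60.9 CPM in AT2 and at 131 and 130 in Endothelial. Igtp was thus close to level between AT2, Endothelial and Fibroblast (132 CPM), and Ifi47 was not. In the Ciliated class the 8 members of these families lay between 4.31 CPM (Gbp3) and 40.9 CPM (Gbp2) in the CD45-negative library.

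Among the 10 other effectors, 4 were highest in the same class in both libraries and outside the Endothelial and Fibroblast classes. Rsad2, which encodes viperin, an enzyme that makes a chain-terminating nucleotide, was at 95.4 CPM (79.0 to 114) in Erythrocyte of the CD45-negative library and at 1.99 in AT2. In the CD45-positive library it was at 71.8 CPM (46.0 to 107) in Erythrocyte and 8.06 in AT2. After thinning each cell to 2000 UMI, 18.4% (12.9 to 25.0) of Erythrocyte cells of the CD45-negative library held a Rsad2 UMI. Among AT2 cells there 0.119% did (0.0144 to 0.430, from 2 cells). In the CD45-positive library the shares were 9.89% (4.62 to 17.9) and 1.59% (0.984 to 2.41). Globin transcripts made up 84.1% of Erythrocyte UMI in the CD45-negative library, and with globins left out of the total Rsad2 was at 600 CPM. Isg20, an exonuclease that degrades viral RNA, was likewise highest in Erythrocyte of the CD45-negative library, at 200 CPM against 101 in Ciliated, 100 in AT2 and 32.0 in Endothelial. In the CD45-positive library it was at 150 CPM in Erythrocyte and 136 in Ciliated. That ratio of 1.10 (0.773 to 1.54) was within counting error. Ifi35, a binding partner of other interferon-induced proteins, was highest in Ciliated, at 223 CPM (199 to 250) in CD45-negative and 252 CPM (219 to 287) in CD45-positive libraries, against 47.4 and 46.1 in AT2. Samhd1, which depletes the nucleotides that retroviruses need, was the only tested member highest in the Immune class of the CD45-negative library, at 248 CPM against 88.7 in Endothelial, and its Immune level in the CD45-positive library was 238 CPM.

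The remaining members were mostly endothelial or low. In the CD45-negative library Gbp4 (117 CPM), Rtp4, a receptor chaperone (115), Parp14, an ADP-ribosyltransferase (76.0), Ifi44 (16.9) and Oas2 (8.32) were highest in Endothelial, and Ifi27 (515 CPM) and Irgm2 (73.0) in Fibroblast. Oas1a was at 10.3 CPM in AT2 and 8.62 in Endothelial, Ifit2 at 4.69 and 4.26, and Oasl1 reached 6.47 CPM in Ciliated. Over both libraries a member had between 119 and 101141 UMI, so the rarest, Mx1, carries the widest intervals.

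Counting, for each member, the class with its highest level in the CD45-negative library gave Endothelial for 18 of the 41 members with enough UMI, Fibroblast for 9, AT2 for 5, Ciliated for 4, AT1 and Erythrocyte for 2 each and Immune for 1. Among all genes the shares were 32.6% for Endothelial, 17.9% for Fibroblast, 5.85% for AT2, 15.5% for Ciliated, 13.6% for AT1, 0.366% for Erythrocyte and 14.2% for Immune. The 5 AT2 members were Irf7, Ifit2, Ifit3, Oas1a and Igtp. In the CD45-positive library Fibroblast was highest for 13 of 42 members and for 19.7% of all genes, and Endothelial for 10 members and for 26.3% of all genes. Several first places were within counting error of the next class, as for Stat2, where Endothelial exceeded Fibroblast by 1.07-fold (0.853 to 1.34).

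Set against AT2 within the CD45-negative library, 20 of 40 members with at least 50 UMI in both classes together were at least 2-fold higher in Endothelial, where 33.6% of all genes tested passed that fold, and 2 were at least 2-fold lower, where 13.1% did. The median ratio of the members was 1.04 on the log2 scale and that of all genes 0.61. The higher members included 3 of the 4 membrane factors, 3 of the 4 transcription factors and 6 of the 10 other effectors. Ifitm1 led at 26.0-fold (21.5 to 31.6), followed by Ifitm3 at 8.44-fold (8.23 to 8.65), Ifitm2 at 6.92-fold and Gbp7 at 5.83-fold (5.28 to 6.43). Xaf1, a promoter of cell death, was 4.47-fold and Ifit1 3.06-fold (2.61 to 3.60) higher. The 2 lower members were Oas3, at 0.0499 of its AT2 level (0.0134 to 0.130), and Isg20, at 0.319 (0.282 to 0.360). Ifitm1 was uneven among the sub-clusters of the Endothelial class. It was at 613 CPM in a pericyte-like sub-cluster (193 cells) and 579 in one with leukocyte markers (29 cells). Large-vessel cells held 18.9 CPM and Car4-expressing capillary cells 29.6. An Ifitm1 UMI was present in 423 of the 1249 Endothelial cells, so it was not confined to the first 2 sub-clusters.

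In the Fibroblast class, with its mesothelial markers, 15 of 40 members were at least 2-fold above AT2 (22.2% of all genes) and 5 at least 2-fold below (12.3%), with medians of 0.55 and 0.38 on the log2 scale for members and all genes. Ifitm3 was 10.0-fold (9.77 to 10.3), Oasl2 7.15-fold (6.32 to 8.09), Ifitm2 6.42-fold, Gbp2 3.64-fold (3.45 to 3.85) and Gbp3 3.60-fold higher. The 5 lower genes were Oas3 and Oas1a of the OAS family, Isg20, Usp18 and Dhx58, which encodes LGP2, a regulator of the RNA sensors. Summed GBP and IRG transcripts were 2.21-fold above AT2, and 1.58-fold without Gbp2. Summed IFIT and OAS transcripts were 2.39-fold above AT2, but that sum rests on Oasl2, and without it the ratio was 0.934 (0.815 to 1.07).

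The AT1 class was close to AT2 for most members. In it 1 of 39 members was at least 2-fold higher (11% of all genes), which was Rsad2 at 3.09-fold, and 4 were at least 2-fold lower (11.9%), namely Trim30a, a regulator of inflammatory signalling, at 0.182, Ifi27 at 0.440, Ifitm2 at 0.449 and Ifitm3 at 0.471 of the AT2 level. The 108 Immune cells of the CD45-negative library had 3 of 38 members at least 2-fold above AT2 (15% of all genes) and 12 at least 2-fold below (22.2%), with medians of −0.69 for members and −0.03 for all genes. The higher ones were Ifitm1 at 6.42-fold, Samhd1 at 3.56-fold (3.10 to 4.07) and Trim30a at 2.05-fold. Ifit3 was at 0.143 of the AT2 level (0.0524 to 0.313), Irf7 at 0.281 and Isg15 at 0.353.

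Comparisons of the Ciliated and Erythrocyte classes with AT2 were added after the values had been seen. In Ciliated, 21 of 38 members were at least 2-fold below AT2 (15.8% of all genes) and 3 at least 2-fold above (15.5%), and the member median was −1.24 against −0.01 for all genes on the log2 scale. Igtp was at 0.141, Isg15 at 0.166, Ifit3 at 0.176 and Gbp2 at 0.228 of the AT2 level. The 3 genes that went the other way were Ifitm1 (28.0-fold, 22.4 to 35.2), Usp18 (11.8-fold, 9.31 to 14.9) and Ifi35 (4.71-fold). A Usp18 UMI was present in 17.6% of Ciliated and 1.49% of AT2 cells of the CD45-negative library after thinning, and in 13.8% and 1.44% of those of the CD45-positive library. In Erythrocyte 29 of 39 members were at least 2-fold lower, a share below the 84.2% of all genes, and Rsad2 and Isg20 were at least 2-fold higher, as were 1.4% of all genes.

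**Figure D2:**
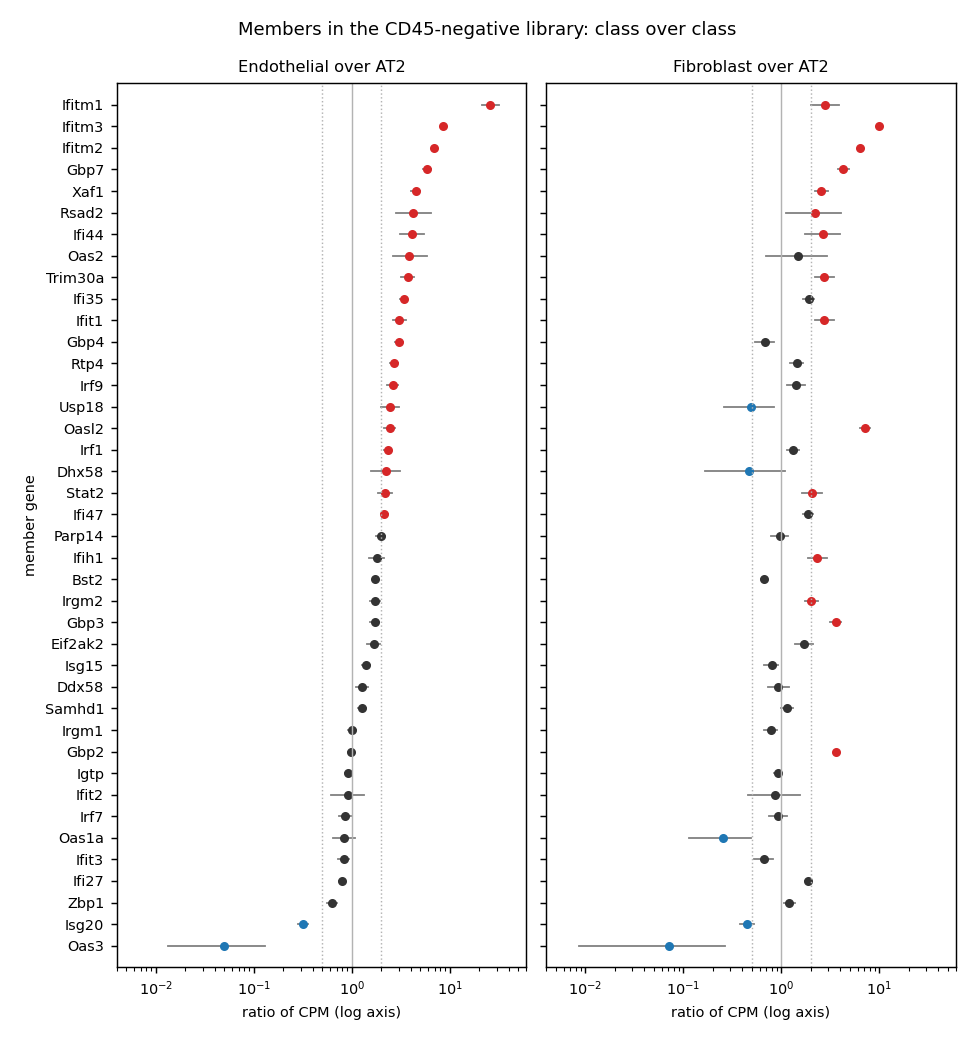
Ratio of each tested member's CPM in the Endothelial (left) and Fibroblast (right) class to that in AT2 of the CD45-negative library, on a log axis. Points are ratios (red at least 2-fold higher, blue at least 2-fold lower), bars are exact 95% intervals for counting error and dotted lines mark 2-fold. Ifitm1, Ifitm3 and Ifitm2 lie farthest to the right in Endothelial, and Oas3 lies farthest to the left in both panels.

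Comparing the 2 fractions as wholes, with all cells of a library pooled, the CD45-negative fraction exceeded the other at least 2-fold for 2 of 42 members (19.1% of all genes) and lay at least 2-fold below it for 4 (10.3%). Irgm1, an IRG GTPase that regulates the others, was at 60.9 against 24.8 CPM (2.45-fold) and Ifit3 at 32.1 against 14.7 (2.18-fold). The 4 lower genes were Mx1, Samhd1 (74.2 against 190 CPM), Ifitm1 (52.6 against 133 CPM) and Trim30a. These totals mix different classes, so levels of 1 class in the 2 fractions are more direct.

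AT2 cells of the CD45-positive library had a summed level 1.06-fold that of AT2 cells of the CD45-negative library (1.05 to 1.08). Of 40 members, 3 were at least 2-fold higher there (5.05% of all genes) and 1 was at least 2-fold lower (1.9%). Ifitm1 was at 66.9 against 6.36 CPM, a 10.5-fold ratio (8.59 to 13), Rsad2 was 4.04-fold and Trim30a 2.14-fold higher, and Irgm1 was at 31.4 against 65.7 CPM. UMI of leukocyte markers were present in 79.7% of these AT2 barcodes in the CD45-positive library and in 10.4% in the CD45-negative library. Among barcodes without such UMI, 269 and 1503 in number, Ifitm1 was at 50.4 against 5.22 CPM (9.65-fold, 6.87 to 13.5), while Rsad2 was 1.79-fold (0.547 to 4.63) and Trim30a 1.5-fold higher. Irgm1 was 0.381-fold (0.261 to 0.538) in those barcodes.

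Endothelial cells gave the same direction for Irgm1, at 29.6 CPM in the CD45-positive and 66.4 in the CD45-negative library (0.445-fold). It was 1 of 2 members, with Oas1a at 0.475-fold, among 39 that were at least 2-fold lower in the CD45-positive library (3.22% of all genes), and 0 were at least 2-fold higher (6.05%). In barcodes without leukocyte-marker UMI the Irgm1 ratio was 0.506. The summed level was 0.831-fold that of the CD45-negative library.

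The spread among cells of 1 class was described after each cell was thinned to 2000 UMI. An AT2 cell of the CD45-negative library then held a median of 4 member UMI, with 10% of cells at 1 or fewer and 10% at 11 or more (the limits), and 81 cells (4.83%) held 0. Endothelial cells held a median of 16 (limits 9 and 26) and Fibroblast cells 16 (limits 8 and 27). The most loaded 10% of cells carried 31.3% of the members' UMI in AT2, 19.4% in Endothelial and 18.2% in Fibroblast of the CD45-negative library, and 33.6% in Immune cells of the CD45-positive library, where 1 cell reached 136. The variance was 4.40 times the mean in AT2, 3.53 in Endothelial and 3.10 in Fibroblast of the CD45-negative library, and 5.63 in Immune of the CD45-positive library. That order did not recur within the CD45-positive library, where it was 3.63 in AT2, 4.10 in Endothelial and 4.37 in Fibroblast. Without the 4 membrane factors it was 4.46 in AT2, 3.75 in Endothelial and 2.23 in Fibroblast of the CD45-negative library, and 2.81 in Immune of the CD45-positive library.

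**Figure D3:**
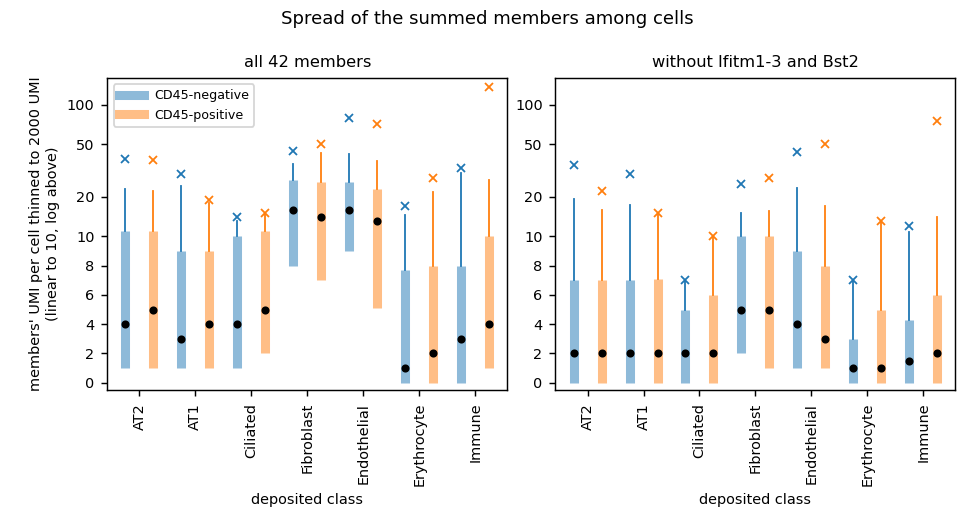
Member UMI per cell thinned to 2000 UMI, by class and library, for all 42 members (left) and without Ifitm1, Ifitm2, Ifitm3 and Bst2 (right), on an axis that is linear to 10 and logarithmic above. Dots are medians, bars leave out the lowest and highest 10% of cells, lines reach the highest 1% and crosses are the highest cell. For all 42 members the medians are 13 to 16 UMI in Endothelial and Fibroblast and 4 to 5 in AT2.

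Sub-clusters of AT2 cells, made without any of the genes listed here, separated high from low cells. A sub-cluster of 256 cells of the CD45-negative library that carried type 1 markers (Ager 4171 CPM) together with the keratin Krt8 (1771 CPM) and the claudin Cldn4 (274 CPM) had a summed level of 4247 CPM against 2326 in the other AT2 cells. In it 24 of 38 members were at least 2-fold higher (9.97% of all genes) and 1 was at least 2-fold lower (5.7%), with medians of 1.19 for members and 0.37 for all genes on the log2 scale. Ifit3 was at 146 against 15.3 CPM (9.55-fold, 8.16 to 11.2), Irf7 at 95.8 against 15.5 (6.19-fold, 5.23 to 7.35) and Gbp2 at 430 against 118 (3.63-fold, 3.39 to 3.89). Oas3, Igtp and Isg15 were 6.61-fold, 2.83-fold and 2.74-fold higher. Against all other AT2 cells the membrane factors did not share the difference: Ifitm3 was at 400 against 402 CPM, Bst2 was 1.47-fold higher and Ifitm1 was the 1 lower gene. Those other cells include a sub-cluster of 165 cells with endothelial markers, which was highest among AT2 sub-clusters for Ifitm1, Ifitm2 and Ifitm3. The call of Ifitm1 as lower was lost when this and another mixed sub-cluster were left out. Its cells had a median of 10458 UMI, against 7431 in the Lyz1 cells described next, and the part of depth in these ratios was not tested.

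At the other end, 239 cells led by Tex11 and the lysozyme gene Lyz1 (1207 CPM), with 248798 CPM of the surfactant gene Sftpc, had a summed level of 1304 CPM against 2861 in the other AT2 cells. In these cells 26 of 38 members were at least 2-fold lower (16.9% of all genes) and 0 were at least 2-fold higher (2.72%), with medians of −1.73 and −0.36 for members and all genes. Ifit3 was at 1.57 CPM, from 3 UMI, against 45.2 CPM (ratio 0.0348, 0.00716 to 0.102), and Gbp2 at 14.7 against 198 CPM (0.0741, 0.0492 to 0.107). Ifi27, a mitochondrial protein induced by type I interferon, did not follow, at 277 against 279 CPM, and Usp18 was at 14.2 against 7.75 CPM.

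Among the 10% of AT2 cells with the most UMI of the 38 members other than Ifitm1, Ifitm2, Ifitm3 and Bst2 (178 cells with at least 7 thinned UMI), 48.3% lay in the sub-cluster with type 1 markers, which held 15.3% of the class. The Lyz1 sub-cluster held 14.3% of the class and 0.562% of these cells. At the limit itself lay 35 cells, and 64 lay 1 UMI below it.

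**Figure D4:**
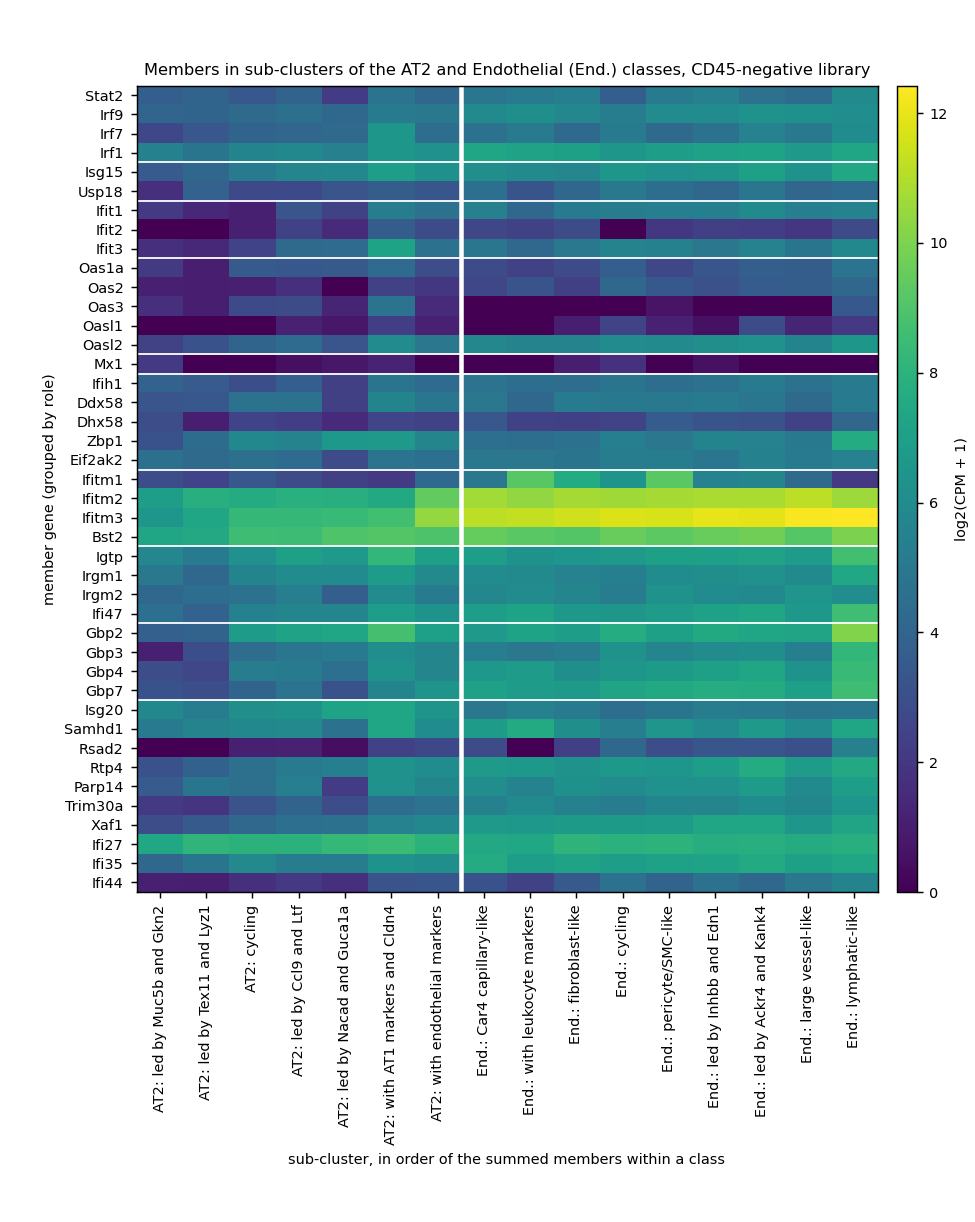
Level of each member (rows, grouped by role) in the sub-clusters of AT2 and Endothelial cells of the CD45-negative library (columns, ordered by summed level within a class), as log2(CPM + 1). Within AT2, Ifit3, Irf7 and Gbp2 are brightest in the column with AT1 markers and dark in that led by Tex11 and Lyz1, and within Endothelial, Gbp2, Gbp3 and Zbp1 are brightest in the lymphatic-like column.

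The same division was looked for in both libraries with single marker genes that are not in the set, a choice made after the values were seen. AT2 cells with a thinned Cldn4 UMI numbered 129 of 1677 in the CD45-negative library, and 19 of 38 members were at least 2-fold higher in them (7.62% of all genes) and 0 lower (4.09%). In the CD45-positive library they numbered 81 of 1324, and 6 of 35 members were at least 2-fold higher (6.01% of all genes) and 1 lower (5.98%). Ifit3 was at 145 against 28.8 CPM in the first library and 74.9 against 32.7 (2.29-fold, 1.63 to 3.16) in the second. Irf7 was 3.95-fold and 2.54-fold, and Gbp2 3.21-fold and 1.86-fold higher. Isg15 was 2.37-fold higher in the first and level in the second, at 1.04-fold (0.773 to 1.36). AT2 cells with a thinned Lyz1 UMI numbered 165 and 44, and their summed level was 0.819-fold and 0.744-fold that of the rest, with 6 of 38 and 5 of 35 members at least 2-fold lower (5.89% and 10.9% of all genes) and 0 and 1 higher (0.429% and 4.87%).

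In the Endothelial class the highest level was found in a small lymphatic-like sub-cluster of 41 cells, which held 57.8 CPM of the lymphatic transcription factor gene Prox1. Its summed level was 13557 CPM against 8295 in the other Endothelial cells of the CD45-negative library, and 14 of 38 members were at least 2-fold higher (4.73% of all genes), with 1 lower (15.3%). Gbp2 was at 1082 against 144 CPM (7.51-fold, 6.65 to 8.47), Zbp1 at 199 against 32.8, Gbp3 at 298 against 51.2 and Igtp at 401 against 122. The chemokine genes Cxcl9 and Cxcl10, both induced by interferon gamma, were at 302 and 125 CPM. Summed GBP and IRG transcripts were 3.74-fold higher (3.49 to 4.0), while summed IFIT transcripts, here without the OAS family, were 1.36-fold higher (0.932 to 1.93), within counting error. Among Endothelial sub-clusters of at least 20 cells, the lymphatic-like one was highest for 25 of 38 members (14.3% of all genes). These included Ifit3, Isg15, Irf7, Stat2, Oas1a, Oasl2 and Rsad2, while Ifit1, Irf9 and Oas2 were highest in other sub-clusters. Ifitm1 was the lower gene, with 1 UMI (3.21 against 170 CPM, ratio 0.0188, 0.000477 to 0.105). Of the 41 cells, 51.2% (35.1 to 67.1) were among the 148 Endothelial cells with the most member UMI outside the membrane factors.

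Immune cells of the CD45-positive library were divided into 21 clusters, also without these genes. A monocyte-like cluster of 131 cells had the highest summed level, at 11283 CPM against 2370 in the other Immune cells, and held the highest level of 13 of 41 members, where 4.18% of all genes peaked. Ifitm3 was at 6439 against 279 CPM (23.1-fold, 22.1 to 24.1) and Ifitm2 9.69-fold higher (9.0 to 10.4). In all, 16 of 41 members were at least 2-fold higher there (7.24% of all genes) and 3 at least 2-fold lower (15.9%). Irf7 was at 121 against 20.6 CPM, Oas3 at 45 against 9.04, Ifit3 at 26.0 against 6.01 and Isg15 at 215 against 79.3. The vacuole GTPases were not higher with them: Gbp2 was at 85.2 against 110 CPM, and summed GBP and IRG transcripts were 0.801-fold (0.675 to 0.944) the level of the other Immune cells, against 3.36-fold (2.72 to 4.11) for summed IFIT and OAS transcripts. With fewer clusters (a resolution of 0.5 in place of 1.0) these cells merged into a cluster of 718 cells that was highest for 1 member.

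Neutrophil-like cells (570) came next in number of first places, with 7 of 41 members, where 1.86% of all genes peaked. In them Isg15 was at 289 CPM, Gbp2 at 253, Ifi47 at 123, Oasl2 at 110, Rtp4 at 76.7 and Rsad2 at 55.4. Both the IFIT with OAS group and the GBP with IRG group were above the other Immune cells here, at 3.03-fold (2.69 to 3.41) and 1.83-fold (1.72 to 1.94). A cluster with both endothelial and macrophage markers was highest for 6 members, where 13.9% of all genes peaked. A cluster of 106 plasmacytoid-dendritic-like cells, which also held erythroid transcripts, was highest for Bst2 (2346 CPM), Trim30a and Usp18. These 3 of 41 members are close to the share of all genes that peaked there, 8.12%. A cluster with markers of mature dendritic cells and of basophils was highest for Ifitm1 (719 CPM), Ifit1 (41.9 CPM), Mx1 (15.7 CPM) and Oasl1 (13.1 CPM). These were 4 of 41 members, where 5.63% of all genes peaked. Summed levels were 3562 CPM in C1q macrophage-like cells (584 cells, with conventional dendritic markers among them), 2352 in alveolar-macrophage-like cells (999), 2132 in regulatory-T-like, 2075 in plasma-cell-like (815) and 1484 in B-like cells (988). The lowest, 1255 CPM, was in 84 cycling B or plasma cells.

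**Figure D5:**
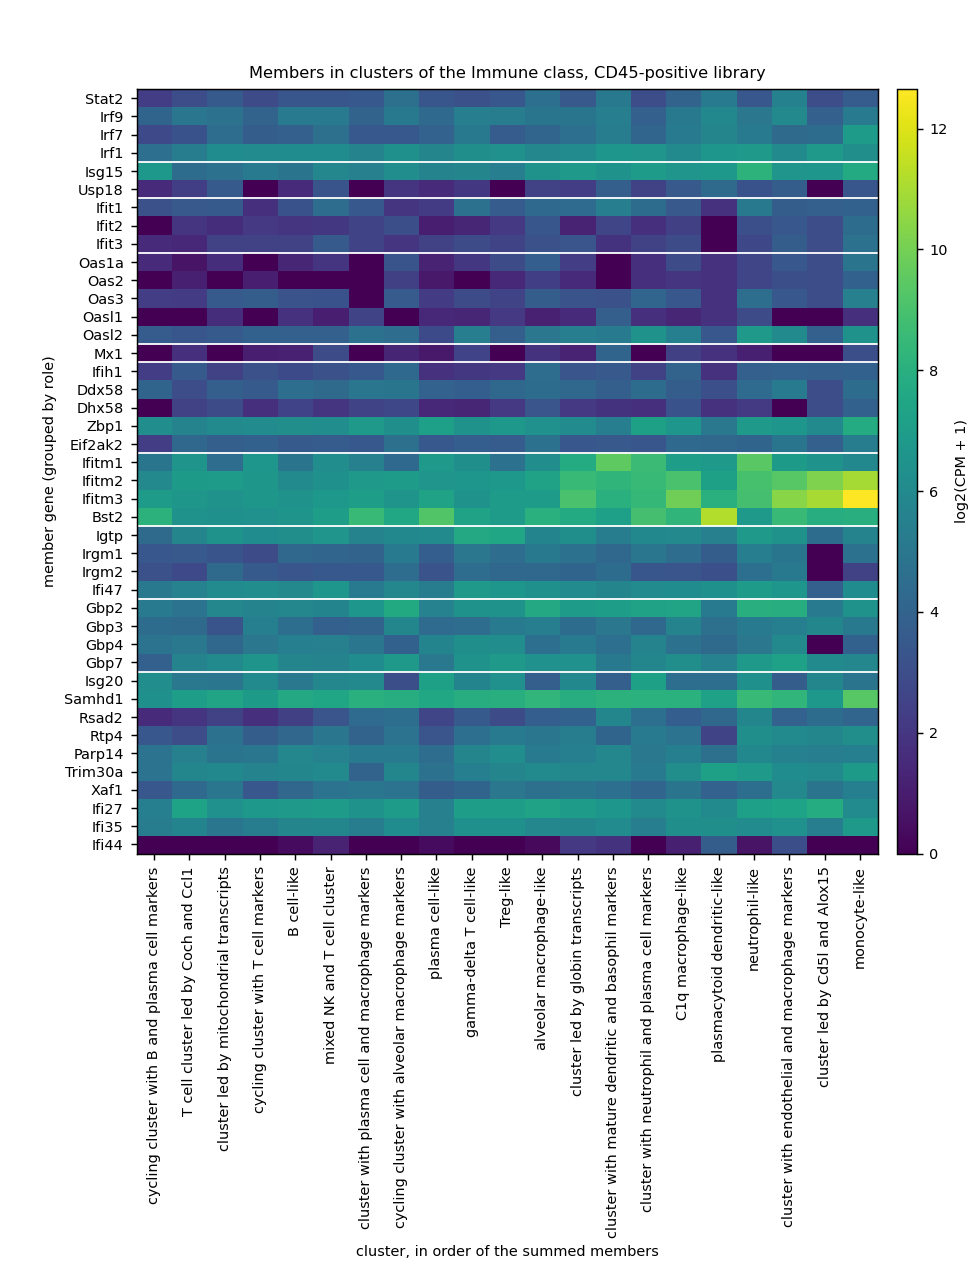
Level of each member (rows) in each cluster of Immune cells of the CD45-positive library (columns, ordered by summed level), as log2(CPM + 1). The monocyte-like column is highest for Ifitm2, Ifitm3, Irf7, Oas1a, Oas2 and Oas3, and the neutrophil-like column for Isg15, Gbp2 and Rsad2.

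Members were also read cell by cell, by comparing cells with and without a thinned Ifit3 UMI, and for this the other members' levels were taken from all UMI of each group. In AT2 of the CD45-negative library 89 of 1677 cells (5.31%) had one. In them 31 of 37 other members were at least 2-fold higher (6.86% of all genes) and 0 at least 2-fold lower, and the median ratio was 3.67 against 1.16 for all genes. Ifit1 was 8.96-fold (6.82 to 11.7), Gbp2 7.77-fold, Irf7 7.10-fold and Isg15 6.03-fold higher, and Ifitm2 was lowest at 0.880-fold. The cells with an Ifit3 UMI had a median of 9730 UMI and the others 8107, and thinning equalised depth only for the choice of cells.

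The same reading in other groups gave 20 of 34 members at least 2-fold higher in AT2 of the CD45-positive library (5.3% of all genes) and 19 of 37 in Endothelial of the CD45-negative library (1.89%). It gave 19 of 36 in Endothelial of the CD45-positive library (2.59%), 4 of 31 in the 21 Fibroblast cells concerned (2.92%) and 23 of 40 in Immune of the CD45-positive library (6.35%). Among Immune cells Ifit1 was 17.6-fold (13.5 to 22.8), Usp18 12.5-fold, Mx1 9.98-fold and Rsad2 9.25-fold higher in the 95 cells with an Ifit3 UMI. Cells chosen by a Gbp2 UMI in AT2 of the CD45-negative library (282) had 27 of 37 other members at least 2-fold higher (2.72% of all genes), and in Immune of the CD45-positive library 6 of 40 (1.69%). The same choice gave 16 of 34 in AT2 of the CD45-positive library (1.41%). It gave 9 of 37 in Endothelial of the CD45-negative library (0.559%) and 7 of 36 in Endothelial of the CD45-positive library (0.462%). In Fibroblast of the CD45-negative library it gave 6 of 31 (0.543%). For both choices of gene, the number of other members at least 2-fold higher was largest in AT2 of the CD45-negative library. The share of all genes past that fold was also largest there, at 6.86% for Ifit3 and 2.72% for Gbp2. The counts alone therefore do not rank the groups. The count did not follow that share throughout, since for Gbp2 AT2 of the CD45-positive library had a larger count than Immune at a smaller share. How far cells of different sub-clusters make up these groups was not tested.

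Of the pathway upstream of these genes, the table holds receptors, kinases and the type II ligand, and ligand genes of types I and III are not analysed here. Ifng was at 0.0979 CPM (4 UMI) among CD45-negative and 27.1 CPM among CD45-positive cells. There it reached 38.9 CPM in the Immune class and 277 CPM in a T-cell cluster led by Coch and Ccl1, which itself had a low summed member level of 1396 CPM. The type II receptor chain Ifngr1 was at 201 CPM in Endothelial, 123 in Fibroblast and 48.4 in AT2 of the CD45-negative library, and Ifngr2 at 85.4, 77.3 and 55.0. The type I receptor chain Ifnar2 was at 217 CPM in Fibroblast, 101 in Endothelial and 52.9 in AT2, and Ifnar1 at 27.4, 40.3 and 16.3. AT2 was thus lowest of these 3 classes for the 4 receptor chains of types I and II. Ifnlr1, the type III receptor chain of epithelia, was at 10.1 CPM in Ciliated, 5.0 in AT1 and 3.29 in AT2 against 0.406 in Endothelial.

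Of 6 receptor genes, 2 were at least 2-fold higher and 1 lower in Endothelial than in AT2, close to the shares of all genes (33.6% and 13.1%). Between the AT2 sub-cluster with type 1 markers and other AT2 cells, 0 of 6 were at least 2-fold higher (9.97% of all genes) or lower (5.7%). A further list of 42 interferon-induced genes, of which 40 are rows of the table, was read beside the members. In that AT2 sub-cluster 14 of its 35 genes with enough UMI were at least 2-fold higher (9.97% of all genes) and 0 lower (5.7%). In the Lyz1 sub-cluster 1 was higher (2.72% of all genes) and 23 were lower (16.9%). In lymphatic-like cells 11 of 34 were higher (4.73% of all genes) and 0 lower (15.3%), and in monocyte-like cells 10 of 39 were higher (7.24%) and 4 lower (15.9%). In Endothelial against AT2 it had 13 of 37 higher and 5 lower, shares close to the 33.6% and 13.1% of all genes. Ifi27l2a, a close relative of Ifi27, was at 1171 CPM in Fibroblast against 34.6 in AT2, and Ly6e, a membrane-anchored protein that blocks viral fusion, was at 2368 CPM in Endothelial.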

How the data were processed

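The cells of 2 fractions of mouse lung tumours, 1 CD45-negative and 1 CD45-positive, were sequenced. The deposited table holds UMI counts per gene and cell, which the authors made with Cell Ranger 1.1.0 on mm10 per the series' design text, and the authors' deposited table of cell classes was used as it stands. The 6000 cells loaded per channel are fewer than the 11432 barcodes of the CD45-positive library.

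UMI were summed per class, sub-cluster and library and divided by the group's total to give CPM, with exact Poisson, conditional-binomial and Clopper-Pearson 95% intervals. Genes with at least 50 UMI over both groups were compared, and 2-fold was the limit for higher or lower. No model or test was fitted, because each group is 1 library. Clusters (scanpy 1.11.5, Leiden resolution 1.0 for Immune and 0.5 for AT2 and Endothelial, 2000 variable genes, 30 components, 15 neighbours) were made without the members and the other listed genes, and named from markers. No doublet caller was run, and mixed clusters are described by their markers. The code was tested on simulated data. Promoters are RefSeq sequences of build GRCm38.p6. Python 3.11.15, numpy 2.4.6, scipy 1.17.1 and pandas 2.3.3 were used.

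The members and gene lists were chosen with earlier results of these data known. The genes named are up to 4 members per role with the most UMI, in each comparison members past 2-fold (at most 12 per direction), up to 6 pathway genes per group, and always Isg15, Ifit3, Irf7, Ifitm3 and Bst2. Of that rule, 1 gene is not reported here. Others, such as those singled out for one class or for not following their family, were named after their values were seen. Alternatives covered the UMI minimum, per-cell means, cell filters, leukocyte-marker barcodes, free RNA, thinning depth, resolution and the membrane factors.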

Additional observations from a re-analysis of the deposited data

How the results depend on the processing

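Of 145 recomputed values, 98 stayed within 1.5 times the count or within counting error and 47 moved. A change of direction could be scored only for the ratios of the summed members, and 0 of those reversed. Members that the CD45-negative library held at least 2-fold above the other numbered 4 with mean per-cell CPM, 4 without cells of high mitochondrial share or depth and 7 without leukocyte-marker barcodes, against 2. With at least 200 UMI, members lower in Endothelial than AT2 numbered 1, lower in Fibroblast 2, higher in AT1 0, and lower in CD45-positive Endothelial 1. With at least 20 UMI, 3 were higher in AT1 and 1 in CD45-positive Endothelial. With mean per-cell CPM, 3 were lower in Fibroblast, 2 higher in AT1, 3 lower in CD45-positive AT2, 1 higher in Erythrocyte and 0 lower in the AT2 sub-cluster with AT1 markers, where the filter on cells and leaving out mixed sub-clusters also gave 0. In CD45-positive AT2 the filter gave 2 lower, and leaving out leukocyte-marker barcodes gave 1 higher and 3 lower, and 1 lower in Endothelial.

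Without Ifitm1, Ifitm2, Ifitm3 and Bst2 the summed ratios were 1.11 between libraries, 1.5 for Endothelial, 1.76 for Fibroblast, 0.866 for AT1 and 0.614 for Immune over AT2, and 0.864 for Endothelial between libraries. Mean per-cell CPM gave 1.39 between libraries, 3.26 for Endothelial, 0.835 for AT1, 0.823 for Immune, 1.09 for AT2 between libraries and 0.821 for Endothelial between libraries. Subtracting free RNA gave 3.39, 3.55, 0.749 and 0.689 for Endothelial, Fibroblast, AT1 and Immune over AT2, 1.0 for AT2 between libraries and 0.805 for Endothelial. The most loaded 10% of cells held 33.7%, 20.5%, 19.4% and 35.7% of member UMI in AT2, Endothelial, Fibroblast and Immune when thinned to 1000 UMI, and 38.2%, 28.9%, 22.7% and 30.6% without the 4 membrane factors. At resolution 0.5 the cluster holding monocyte-like cells was highest for 1 member, against 13. Apart from what the settings remove, the cause was not tested.

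No paired analysis was possible because each group is 1 library. Ratios of genes with few UMI, such as Mx1, Oasl1, Ifit2 and Rsad2 in AT2, are limited by depth. Leaving out a replicate could not be tried for the same reason.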
